A study of Mus musculus with 6 samples.

Results

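Cells protect their genome with enzymes that cut out damaged bases, copy past them or rejoin broken strands, and 54 mouse genes of these systems were followed here in hair follicle cells exposed to a carcinogen. The 54 genes were chosen by name, with earlier results of these data known. They comprised 12 genes of nucleotide excision repair, 8 of translesion synthesis, 7 of the Fanconi crosslink pathway, 13 of double strand break repair, 10 of base excision repair, 2 of mismatch repair, and Mgmt and Rrm2b, placed apart as genes of direct reversal and of nucleotide supply. A probe was matched for 53 of them, all 53 cleared background on 3 or more of the 6 arrays and were tested, and they stood among 17848 genes tested in all. Rad51c, a gene of homologous recombination, had no matched probe and is not analysed here.

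The cells came from male mice whose hair had been removed and whose skin then received acetone, the vehicle, or DMBA (7,12-dimethylbenz[a]anthracene), a polycyclic hydrocarbon carcinogen. After 3 days, epidermal cells with high EGFP from a keratin 15 promoter reporter (K15-EGFP), high ITGA6 and no Sca1 on the surface were sorted, a population that the labels name hair follicle stem cells/hair germ. Per treatment there were 3 samples from different mice, each on its own 1-colour array, and all mice of both groups shared the depilation and the reporter. The age, the strain and the dose are not given in the sources used here. RNA came from all sorted cells together, so a lower signal from fewer cells of a kind cannot be told apart from less RNA per cell.

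DMBA is turned by cytochrome P450 enzymes into a diol epoxide that binds adenine and guanine and leaves bulky adducts. Nucleotide excision repair removes such adducts, either when XPC or UV-DDB finds them anywhere in the genome or when an RNA polymerase stalls on them and CSB, the product of Ercc6, arrives. Adducts still present in S phase can be bypassed by translesion polymerases, and polymerase kappa, the product of Polk, is known for copying past bulky adducts on guanine. Forks that collapse leave breaks, which are joined by homologous recombination, with BRCA1, PALB2 and BRCA2, or by end joining, with the Ku proteins and DNA ligase 4.

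The stretch upstream of a gene is shown for the members with an unadjusted p under 0.05 and groups that did not overlap, as far as the promoter table used here holds them. These were Polk, the only higher member of that kind, and Ercc6 and Rad52, which were lower. Each sequence is the 250 bases before an annotated start, 5′ to 3′ on the strand of the gene, from RefSeq on GRCm38.p6, and is credited to that source. Capitals mark matches on either strand to GCGTG, the core bound by the aryl hydrocarbon receptor, to GGGCGG, the GC box, and to the consensus p53 half-site.
Polk, first start, chr13:96542580-96542829, minus strand: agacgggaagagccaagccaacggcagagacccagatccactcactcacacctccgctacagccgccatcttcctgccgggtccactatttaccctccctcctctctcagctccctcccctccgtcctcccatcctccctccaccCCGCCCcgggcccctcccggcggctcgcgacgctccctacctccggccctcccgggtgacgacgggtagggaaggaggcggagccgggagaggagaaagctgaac
Polk, second start, chr13:96519188-96519437, minus strand: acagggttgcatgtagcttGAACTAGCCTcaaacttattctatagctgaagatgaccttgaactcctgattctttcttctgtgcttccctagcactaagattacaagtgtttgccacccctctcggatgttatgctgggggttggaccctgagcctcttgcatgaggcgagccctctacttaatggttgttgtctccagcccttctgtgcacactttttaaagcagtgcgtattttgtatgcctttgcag
Ercc6, chr14:32513271-32513520, plus strand: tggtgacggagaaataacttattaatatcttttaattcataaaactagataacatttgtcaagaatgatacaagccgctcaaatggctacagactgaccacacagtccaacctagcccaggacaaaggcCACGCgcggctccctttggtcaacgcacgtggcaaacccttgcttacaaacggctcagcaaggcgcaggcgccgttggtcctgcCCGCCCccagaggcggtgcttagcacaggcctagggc
Rad52, chr6:119902448-119902697, plus strand: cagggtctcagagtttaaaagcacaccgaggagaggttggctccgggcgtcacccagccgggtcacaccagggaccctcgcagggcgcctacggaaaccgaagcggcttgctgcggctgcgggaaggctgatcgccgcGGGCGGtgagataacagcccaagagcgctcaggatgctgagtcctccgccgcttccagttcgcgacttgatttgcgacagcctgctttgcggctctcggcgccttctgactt
The half-site in capitals was found at the second annotated start of Polk, the GC box in capitals upstream of its first start, of Ercc6 and of Rad52, and the GCGTG core upstream of Ercc6.

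The motifs searched were 5 in all, the other two being TTTCCCGC and TTTGGCGC, both forms of the E2F site, on both strands. Windows were at hand for 44 of the 54 members, 54 windows in all because some genes have several starts. GGGCGG lay in 63.0% of the members' windows and in 32.7% of the 32851 windows of all genes. GCGTG lay in 42.6% and 28.2%, the p53 half-site in 5.56% and 7.13%, TTTCCCGC in 5.56% and 0.895%, and TTTGGCGC in 0% and 0.417%. Each share of 5.56% is 3 windows, and the gaps between the shares were not tested. Windows are not independent, since those of Rad54l overlap each other, as do those of Rad18. Windows of Rad51c, which had no matched probe, are counted too. Besides Polk, the half-site lay upstream of Fanca and Fancg, which belong to the Fanconi core complex, and TTTCCCGC lay upstream of Fancg, Brca2 and Xrcc6. None of the motifs overlapped another in the 4 windows shown. A match is a stretch of letters and does not show that a factor binds there.

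Levels are log2 values relative to the 75th percentile of the same array, except the summed levels of marker lists. Those are linear sums of the signal relative to that percentile, in which bright genes weigh most. All differences are DMBA minus vehicle on the log2 scale. Between 77.0% and 83.6% of probes cleared background in the vehicle samples and between 69.3% and 80.9% in the DMBA samples, fewest on DMBA 2. Of the 53 genes, 49 were well above background on all 6 arrays, and the exceptions, Ercc6, Palb2, Ogg1 and Brca2, were well above it on every vehicle array and on 1, 1, 1 and 2 of the DMBA arrays, respectively. Vehicle 1 was alone on its slide and in its scan, so each difference without it is the difference within the slide that held the other 5 arrays. The sort markers were present on every array, Krt15 at 5.70 to 5.91 in vehicle and 5.74 to 6.49 in DMBA and Itga6 at 2.42 to 2.68 and 1.76 to 2.80. Of 9 listed genes of the sorted cells, these 2 among them, 4 were higher and 5 lower (median -0.01). Lgr5, at -0.64 (SE 0.22), and Sox9, at -0.50 (SE 0.24), were lower on every DMBA array (22.2%, against 5.17% of all genes). The gene of Sca1, Ly6a, which the gate selects against, lay at -0.20, -1.67 and -1.78 in vehicle samples 1 to 3 and 0.29, 0.27 and 0.13 in DMBA samples 1 to 3. Of 7 measured genes of the outer epidermis and sebaceous gland, Ly6a among them, 4 were higher and 3 lower (median 0.12). Krt1 and Krt10 were at 0.55 (SE 0.55) and 0.71 (SE 0.67), with overlapping groups. Of marker lists of other cells, 3 of 4 measured fibroblast genes were higher. Their linear summed level was 1.02 to 3.10 in vehicle and 2.57 to 3.16 in DMBA. For 8 melanocyte genes, of which 3 were higher, the sum was 2.95 to 4.46 and 4.14 to 6.75, and for 8 leukocyte genes, of which 3 were higher, 2.76 to 8.26 and 3.86 to 5.12. Blood genes were higher in 4 of 4 (sum 0.412 to 4.24 in vehicle and 0.773 to 5.23 in DMBA) and endothelial genes in 2 of 3 (2.392 to 2.501 and 2.35 to 3.78). Among single markers the difference was 2.30 (SE 0.45) for H2-Eb1, an MHC class II gene, and 1.51 (SE 0.25) for Dcn, the fibroblast gene of decorin, both without overlap of the groups, and 2.72 (SE 0.95) for Mlana and 3.35 (SE 1.32) for Tyrp1, of melanocytes, with overlapping groups. H2-Aa, another class II gene, was at -0.49, with all DMBA arrays below. Col1a1 of fibroblasts, at 1.29 (SE 0.57), and Eng of the endothelial list, at 1.14 (SE 0.57), were also higher on every DMBA array. Thus 2 of 4 fibroblast genes had groups apart on the higher side (50%, against 4.87% of all genes). Col3a1 of fibroblasts was at -0.52, and Kit, Pmel and Sox10 of melanocytes at -1.24, -0.47 and -0.43, with overlapping groups. Among these lists Tyrp1, a melanocyte pigment enzyme, was not well above background on 2 of the vehicle arrays and Lyz2, a myeloid gene, on 1 of the DMBA arrays. Pecam1 of the endothelial list was well above it on 2 of the DMBA arrays, and Hbb-b2 of the blood list on 2 vehicle arrays and 1 DMBA array. The part of these cells in the repair genes' differences was not tested.

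Across the 53 genes, 20 had a higher and 33 a lower mean with DMBA; the median difference was -0.08, where the median of all genes tested was -0.01 and 51.2% of all genes were lower. No repair gene passed the threshold of 0.05 on p-values that limma gave and Benjamini-Hochberg adjusted over all genes, the smallest being 0.689 for Ercc6, and the share of all genes that passed was 0%. At an unadjusted limma p under 0.05, 1 repair gene was higher, Polk, a share of 1.89% where 2.73% of all genes were higher. At the same limit 6 were lower, Ercc3, Ercc6, Rad52, Brca1, Palb2 and Rrm2b, a share of 11.3% where 2.49% of all genes were lower. With arrays scaled on their median these shares of all genes were 2.26% higher and 3.32% lower, and the repair genes numbered 1 and 5. The 3 DMBA values all lay above the 3 vehicle values in 2 repair genes, Ercc1 and Polk (3.77%, against 4.87% of all genes). They all lay below in 7, Ercc3, Ercc4, Ercc6, Xrcc4, Prkdc, Rad52 and Rrm2b (13.2%, against 5.17% of all genes). Ercc6 and Palb2 met the filter of 3 arrays through the vehicle arrays, being well above background on 1 DMBA array each. A filter on all 6 arrays leaves out Ercc6 and takes the other probe of Palb2. With it, 4 of 50 repair genes were lower at an unadjusted limma p, where 2.56% of all genes were lower. Under that filter the groups did not overlap in 8 repair genes, both directions together. These are counts over a chosen list, and the gap between its shares and those of all genes was not tested. The number lower at unadjusted p was 4 without any single one of the arrays other than DMBA 3 and 2 without DMBA 3, and the genes were not the same each time. Ercc6 passed that limit in all 6 of these fits. Polk passed it in 2 of the 6, without vehicle 1 and without DMBA 2; the higher gene was Polh without vehicle 2 and Fancd2 without DMBA 3, and there was none without vehicle 3 or DMBA 1.

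**Figure D1:**
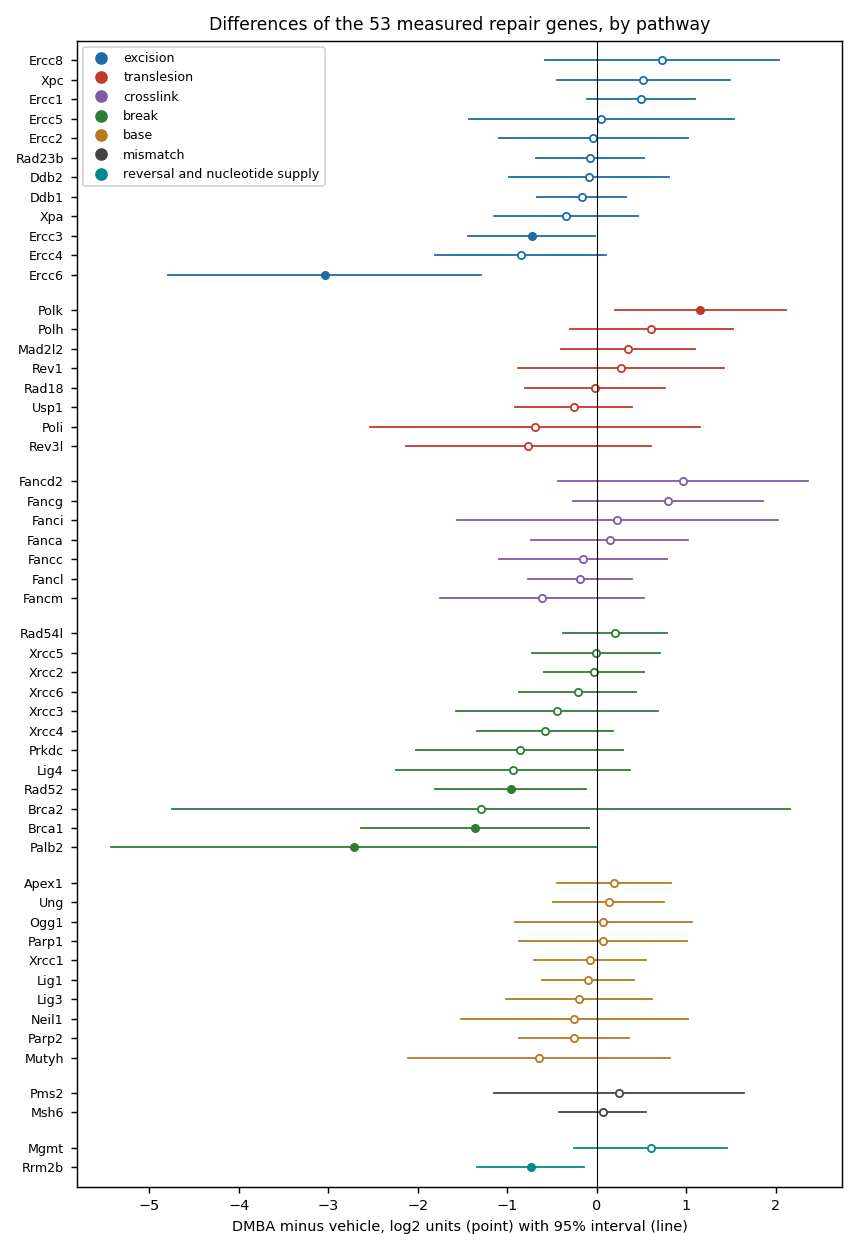
Difference between DMBA and vehicle on the log2 scale for each of the 53 measured repair genes, grouped by pathway, with the 95% interval from limma as a line and filled points for an unadjusted p under 0.05. The break repair genes lie mostly to the left of 0, from -2.72 for Palb2 to 0.20 for Rad54l, and only Polk has a filled point to the right.

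**Figure D2:**
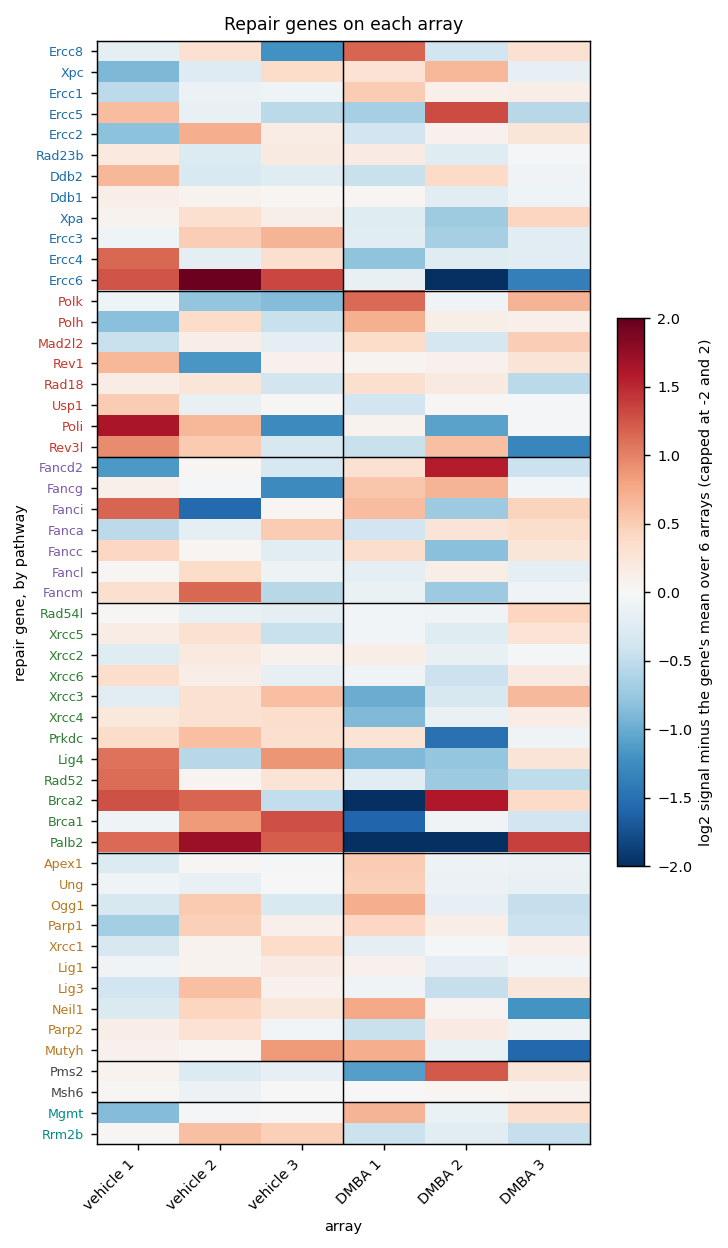
Signal of each of the 53 repair genes on each of the 6 arrays, as the log2 value minus the mean of that gene over the arrays, with colours capped at -2 and 2 and pathways separated by lines. The break repair genes are dark blue mainly on DMBA 1 and DMBA 2 and mostly pale on DMBA 3, and the base repair genes show no split between the groups.

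The translesion genes divided evenly, 4 higher and 4 lower, with a median difference of 0.12. At an unadjusted p, 1 of the 8 was higher (12.5%, against 2.73% of all genes). The inserting polymerases place a base opposite the lesion itself. Polk lay at 0.46, -0.24 and -0.33 in vehicle samples 1 to 3 and 1.67, 0.47 and 1.22 in DMBA samples 1 to 3. All 3 DMBA arrays were above all 3 vehicle arrays, although the lowest DMBA array was only just above the highest vehicle array. The difference was 1.16 (SE 0.40, n = 3 and 3), a 2.23-fold higher level, with a limma adjusted p of 0.895 and a 95% interval of 0.20 to 2.11. It was 1.40 within the slide and ranged from 0.88 to 1.48 as single arrays were left out. A second, dimmer probe to the same Polk transcript gave 0.50, with vehicle values of -1.25, -1.56 and -2.42 and DMBA values of -2.72, -0.78 and -0.23. On that probe DMBA 1 was the lowest of all arrays, while on the first probe it was the highest.

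Polh encodes polymerase eta, which copies past ultraviolet dimers, and read 0.35, 1.55 and 0.73 in vehicle samples 1 to 3 and 1.89, 1.30 and 1.28 in DMBA samples 1 to 3. Vehicle 2 lay inside the range of the DMBA arrays, and the difference was 0.61 (SE 0.38, adjusted p = 0.995; 0.35 within the slide). For Poli, polymerase iota, the values were 1.73, 0.76 and -1.17 in vehicle samples 1 to 3 and 0.16, -0.97 and 0.06 in DMBA samples 1 to 3. The vehicle arrays spread over a wider range than the DMBA arrays and enclosed them, and the difference of -0.69 (SE 0.76) became -0.05 without vehicle 1. Rev1, whose product holds the other bypass polymerases at the lesion, had values of -0.75, -2.59 and -1.34 in vehicle samples 1 to 3 and -1.36, -1.33 and -1.17 in DMBA samples 1 to 3. The DMBA arrays were close together inside a wide vehicle range, with a difference of 0.27 (SE 0.48), and without vehicle 2 the sign turned, to -0.24.

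Polymerase zeta, which extends the strand after the insertion, is represented by its catalytic subunit Rev3l and by Mad2l2. Rev3l lay at -1.53, -1.95 and -2.79 in vehicle samples 1 to 3 and -2.92, -1.86 and -3.78 in DMBA samples 1 to 3, and Mad2l2 lay at -0.10, 0.47 and 0.15 in vehicle samples 1 to 3 and 0.72, 0.02 and 0.83 in DMBA samples 1 to 3. The groups overlapped in both genes, which went opposite ways, -0.76 (SE 0.57) for Rev3l and 0.35 (SE 0.31) for Mad2l2. The second probe of Mad2l2 gave 0.66. The switch to bypass is set by the ubiquitin ligase RAD18, which marks PCNA, and by USP1, which removes the mark. Rad18 had values of 1.74, 1.84 and 1.23 in vehicle samples 1 to 3 and 1.91, 1.78 and 1.06 in DMBA samples 1 to 3, a difference of -0.02 (95% interval -0.81 to 0.76). For Usp1 they were 3.03, 2.38 and 2.55 in vehicle samples 1 to 3 and 2.14, 2.54 and 2.51 in DMBA samples 1 to 3, a difference of -0.26 (95% interval -0.91 to 0.39). Of the 13 other genes of bypass and fork reversal that were listed beside these, 5 were higher and 8 lower (median -0.35), and Zranb3, a fork remodelling enzyme, was at -1.68 (adjusted p = 0.938).

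**Figure D3:**
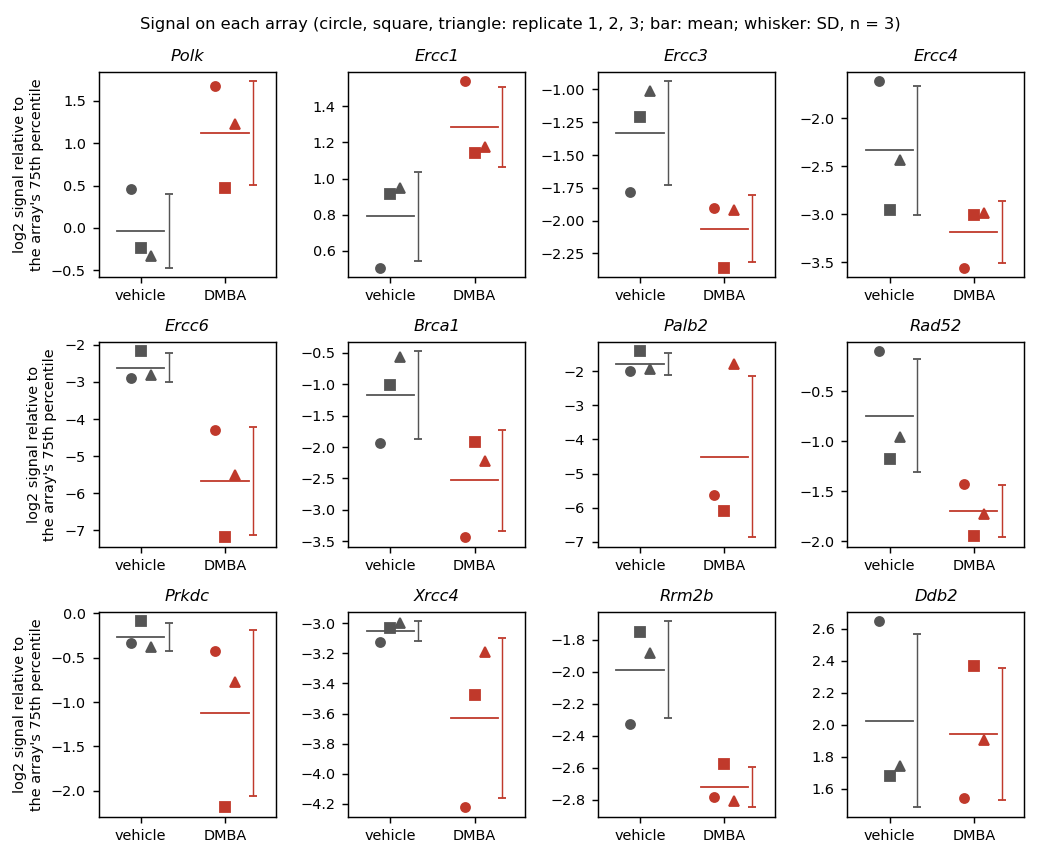
Log2 signal relative to the 75th percentile of the array for 12 repair genes in the 3 vehicle and 3 DMBA samples, with the mean as a bar and the SD (n = 3) as a whisker; each panel has its own scale. Polk and Ercc1 are higher on all DMBA arrays, and Ercc3, Ercc4, Ercc6, Rad52, Prkdc, Xrcc4 and Rrm2b lower on all of them, while Brca1, Palb2 and Ddb2 overlap.

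Nucleotide excision repair spanned differences from -3.04 in Ercc6 to 0.73 in Ercc8. Of its 12 genes 4 were higher and 8 lower (median -0.08), and 2 were lower at an unadjusted p (16.7%, against 2.49% of all genes). Of these 2, Ercc6 met the filter through the vehicle arrays. Ercc6, the ATPase that brings the repair machinery to stalled RNA polymerase, lay at -2.88, -2.17 and -2.80 in vehicle samples 1 to 3 and -4.28, -7.19 and -5.51 in DMBA samples 1 to 3. Every DMBA array was below every vehicle array, and DMBA 2 and DMBA 3 were not well above background, so the size of the difference rests in part on background readings. It was -3.04 (SE 0.72, limma adjusted p = 0.689), -3.17 within the slide and -1.65 after normexp background correction. Its partner in the same branch, Ercc8, which encodes a subunit of a ubiquitin ligase, had a difference of 0.73 (SE 0.54), and its other probe gave -0.32.

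Damage recognition in the rest of the genome gave differences in both directions. Xpc, the sensor, lay at -3.24, -2.60 and -1.98 in vehicle samples 1 to 3 and -2.06, -1.68 and -2.52 in DMBA samples 1 to 3, and the groups overlapped, with a difference of 0.52 (SE 0.40). Ddb2, the damage-binding subunit of UV-DDB, lay at 2.65, 1.68 and 1.74 in vehicle samples 1 to 3 and 1.54, 2.37 and 1.90 in DMBA samples 1 to 3. Vehicle 1 was its highest array and DMBA 1 its lowest, and the difference of -0.08 (SE 0.37) became 0.23 without vehicle 1. Ddb1, its partner, and Rad23b, which binds XPC, had narrow intervals around differences of -0.17 (-0.66 to 0.33) and -0.08 (-0.68 to 0.53).

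The next steps unwind the DNA and cut it. Ercc3, the XPB subunit of the TFIIH complex that opens the helix, had values of -1.78, -1.21 and -1.01 in vehicle samples 1 to 3 and -1.91, -2.36 and -1.92 in DMBA samples 1 to 3. The DMBA arrays all lay below, with vehicle 1 close above them, and the difference was -0.73 (SE 0.29, adjusted p = 0.942; -0.95 within the slide). Ercc2, the other helicase of TFIIH, was at -0.04 (95% interval -1.09 to 1.02), Xpa, which checks the lesion, at -0.34 (second probe -0.89), and Ercc5, the nuclease on the 3′ side, at 0.05 (95% interval -1.42 to 1.53; -0.01 with arrays scaled on their median).

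The nuclease on the 5′ side of the lesion is a pair of proteins, ERCC1 and ERCC4, which need each other to be stable, and their genes went opposite ways. Ercc1 lay at 0.51, 0.92 and 0.95 in vehicle samples 1 to 3 and 1.54, 1.14 and 1.17 in DMBA samples 1 to 3. Its DMBA arrays were all above the vehicle arrays, by a mean of 0.49 (SE 0.25, adjusted p = 0.975; 0.35 within the slide). Ercc4 lay at -1.61, -2.95 and -2.43 in vehicle samples 1 to 3 and -3.56, -3.01 and -2.99 in DMBA samples 1 to 3. Its DMBA arrays were all below, with DMBA 2 and DMBA 3 just under vehicle 2, and the mean difference of -0.85 (SE 0.40, adjusted p = 0.969) was -0.49 without vehicle 1. Neither gene passed at an unadjusted p, and the difference between the 2 genes was not tested. None of 15 other excision genes, TFIIH and RPA subunits among them, passed at an unadjusted p (6 higher, 9 lower, median -0.09).

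Break repair was the pathway of more than 2 genes that lay most to one side. Of its 12 measured genes 11 were lower (91.7%, against 51.2% of all genes), and the median difference was -0.72. At an unadjusted limma p under 0.05, 3 were lower, Rad52, Brca1 and Palb2 (25%, against 2.49% of all genes). The gap between these shares was not tested, and Palb2 met the filter of 3 arrays through the vehicle arrays. With a filter on all 6 arrays, 10 genes of the pathway were lower and the median difference was -0.58. The shift was not the same on all DMBA arrays. Taking each gene relative to its own mean over the arrays, the median of the 12 genes was 0.28, 0.30 and 0.29 for vehicle 1 to 3, against -0.55, -0.28 and 0.22 for DMBA 1 to 3. DMBA 3 thus lay near the vehicle arrays, and the median difference was -0.26 without DMBA 1, when 9 of the 12 genes were lower. With the percentage of probes well above background as a covariate, 8 of the 12 were lower. DMBA 2 had the lowest such percentage, 69.3%, and DMBA 1 the lowest signal of the proliferation gene Mki67, 4.89, 4.70 and 4.91 in vehicle samples 1 to 3 and 2.83, 4.75 and 4.66 in DMBA samples 1 to 3. Mki67 was not typical of the 14 listed genes of S phase and mitosis, of which 2 were lowest and 2 highest on DMBA 1. Relative to each gene's own mean, the median of these 14 was 0.04 on DMBA 1, -0.09 on DMBA 2 and -0.14 on DMBA 3. Medians of the vehicle arrays lay between -0.06 and 0.19. The part of the percentage, or of proliferation, in the break repair values was not tested.

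In homologous recombination BRCA1 and PALB2 bring BRCA2 to the break. Brca1 had values of -1.94, -1.01 and -0.57 in vehicle samples 1 to 3 and -3.44, -1.93 and -2.23 in DMBA samples 1 to 3. DMBA 2 and vehicle 1 were almost equal and the other arrays were apart, with a difference of -1.36 (SE 0.53, adjusted p = 0.942; -1.74 within the slide and -0.91 without DMBA 1). Palb2 had values of -2.01, -1.42 and -1.94 in vehicle samples 1 to 3 and -5.63, -6.10 and -1.78 in DMBA samples 1 to 3. DMBA 3 lay within the vehicle range while DMBA 1 and DMBA 2 were not well above background, so that the difference of -2.72 (SE 1.12, adjusted p = 0.954) rests on those 2 arrays and was -1.92 without DMBA 2 and -4.08 without DMBA 3. A dimmer Palb2 probe, to another transcript accession, was well above background on all 6 arrays and gave -1.42, with vehicle values of -2.90, -4.11 and -1.51 and DMBA values of -3.95, -4.39 and -4.43. For Brca2 the values were -0.65, -0.76 and -2.42 in vehicle samples 1 to 3 and -5.85, -0.31 and -1.54 in DMBA samples 1 to 3, and the difference of -1.29 (SE 1.43) rested on DMBA 1, being 0.35 without it.

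Rad52, which anneals single strands, lay at -0.10, -1.18 and -0.95 in vehicle samples 1 to 3 and -1.43, -1.95 and -1.73 in DMBA samples 1 to 3. All DMBA arrays were below all vehicle arrays, and vehicle 1 was far above the others. The difference was -0.96 (SE 0.35, adjusted p = 0.916), a 1.95-fold lower level, and -0.64 without vehicle 1. Xrcc2 and Xrcc3, also of homologous recombination, were at -0.03 and -0.44, and Rad54l, a motor that helps strand exchange, at 0.20, the one break gene on the higher side.

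End joining begins with the Ku proteins, whose genes Xrcc5 and Xrcc6 had differences of -0.01 (95% interval -0.72 to 0.71) and -0.21 (-0.86 to 0.44). Prkdc, the kinase that Ku recruits, lay at -0.33, -0.09 and -0.38 in vehicle samples 1 to 3 and -0.42, -2.19 and -0.77 in DMBA samples 1 to 3. DMBA 2 was far below all other arrays, DMBA 1 was just below vehicle 3, and the difference of -0.86 (SE 0.48, adjusted p = 0.99) was -0.33 without DMBA 2. Xrcc4, the scaffold of the ligase, lay at -3.13, -3.03 and -2.997 in vehicle samples 1 to 3 and -4.23, -3.48 and -3.19 in DMBA samples 1 to 3. The vehicle arrays were close together and the DMBA arrays below them, DMBA 1 furthest, with a difference of -0.58 (SE 0.32, adjusted p = 0.988; -0.28 without DMBA 1). Lig4, the ligase itself, was at -0.93 (SE 0.54, adjusted p = 0.993), and its groups overlapped.

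The probes of Rad52 and Prkdc were each spotted 10 times on every array, so the spread between spots can be set beside the spread between samples. Over the repeat spots of an array the SD was 0.036 to 0.083. For Rad52 the SD between arrays was 0.57 in vehicle and 0.26 in DMBA, and for Prkdc 0.16 in vehicle and 0.94 in DMBA. The Prkdc spots of DMBA 1 (-0.56 to -0.31) overlapped those of vehicle 1 (-0.48 to -0.22) and vehicle 3 (-0.41 to -0.28). Its groups were thus apart by array means only. The low value of DMBA 2 for Prkdc and the high value of vehicle 1 for Rad52 were read alike by the repeat spots of those arrays. Each sample had its own array and vehicle 1 its own slide, so mouse, array and slide cannot be told apart in this spread.

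**Figure D4:**
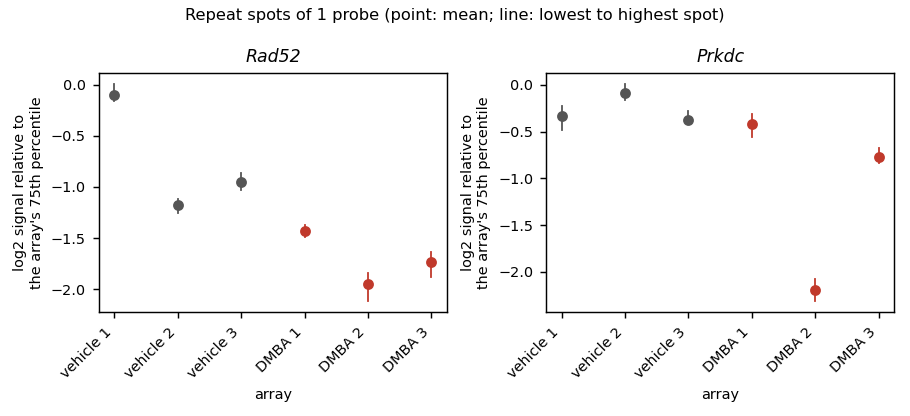
Log2 signal relative to the 75th percentile for the repeat spots of the Rad52 and Prkdc probes on each array, as the mean (point) and the lowest to highest spot (line). Spots of an array lie close together, and some arrays lie further from the rest of their group than the spots spread, as vehicle 1 in Rad52 and DMBA 2 in Prkdc. In Prkdc the spots of DMBA 1 overlap those of vehicle 1 and vehicle 3.

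Of 19 further break repair genes, 12 were lower and 7 higher, with a median of -0.31. Mre11a, the nuclease that trims broken ends, was the only one past an unadjusted p of 0.05, at -0.73 (SE 0.29, adjusted p = 0.942) with groups that did not overlap. Of 10 genes of the damage checkpoint, 5 were higher and 5 lower, and 2 were lower at an unadjusted p (20%, against 2.49% of all genes). Chek2, the kinase that ATM activates at breaks, lay at -0.44, 1.06 and 0.50 in vehicle samples 1 to 3 and -0.98, -1.12 and -0.68 in DMBA samples 1 to 3. Its DMBA arrays were all below the vehicle arrays (difference -1.30, SE 0.41, adjusted p = 0.855), as were those of Clspn, the CHEK1 adaptor, at -0.80 (SE 0.28, adjusted p = 0.896). Genes of S phase and mitosis, of which 6 were higher and 8 lower, had a median of -0.16.

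The crosslink genes gave no unadjusted p under 0.05 and no groups apart, with 4 of 7 higher and a median of 0.14. Fancd2 and Fanci encode the pair that the core complex marks with ubiquitin, and their differences were 0.96 (95% interval -0.44 to 2.36) and 0.23 (-1.56 to 2.02). In the core complex Fancg was at 0.79 (SE 0.44), Fanca at 0.14, and Fancl, the ubiquitin ligase, at -0.19 (95% interval -0.77 to 0.39). Fancm, which anchors the complex on DNA, was at -0.61 (SE 0.47). Fancc had values of -0.57, -0.94 and -1.18 in vehicle samples 1 to 3 and -0.62, -1.81 and -0.73 in DMBA samples 1 to 3, with DMBA 2 lowest and the rest mixed, a difference of -0.16 (SE 0.39). A second Fancc probe was well above background on 1 array and was not used. Of 13 further crosslink genes 6 were higher and 7 lower (median -0.03), none past an unadjusted p of 0.05.

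Base excision repair differed little, all 10 genes lying between -0.64 for Mutyh and 0.19 for Apex1, with 4 higher, 6 lower and a median of -0.09. No gene of this pathway passed at an unadjusted limma p, and none had groups apart. Ogg1, which removes oxidised guanine, was at 0.07 but well above background on 1 DMBA array only, and Mutyh, which removes the adenine opposite it, had one of the wider intervals (-2.11 to 0.82). Ung, which removes uracil, was at 0.13 (-0.49 to 0.76), and Neil1, another glycosylase, at -0.25 (-1.52 to 1.02). Among the enzymes that finish the repair, Parp1 and Parp2, the break sensors, were at 0.07 and -0.25, the scaffold Xrcc1 at -0.08, and the ligases Lig1 and Lig3 at -0.10 and -0.20. The 95% interval lay within 1 log2 unit of 0 for 5 of the 10 genes, for 16 of all 53 repair genes (30.2%) and for 39.0% of all genes tested. Of 14 other measured base repair genes 9 were higher and 5 lower, and 2 glycosylases were lower at an unadjusted limma p (14.3%, against 2.49% of all genes). These were Smug1 at -0.80 (adjusted p = 0.938) and Mbd4 at -0.91 (adjusted p = 0.95), both with groups apart.

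In mismatch repair Msh6, part of the pair that recognises mismatches, was the most evenly measured repair gene, from 2.90 to 3.08 over all 6 arrays, with a difference of 0.06 and a 95% interval of -0.42 to 0.55. Pms2, the nuclease partner, was at 0.25 (-1.15 to 1.64) and its other probe at -0.41. Outside the 54 genes, Mlh3, a further MutL gene, had the smallest unadjusted p of the 86 other repair genes measured. Its values were -0.29, -0.27 and -0.32 in vehicle samples 1 to 3 and 2.39, 1.12 and 1.42 in DMBA samples 1 to 3, with the vehicle arrays almost equal and every DMBA array above them by more than 1 log2 unit. The difference was 1.94 (SE 0.36, limma adjusted p = 0.519) and 1.94 within the slide. Pms1, another MutL gene, was lower by the same limit, at -0.95 (SE 0.31, adjusted p = 0.861), with groups apart. Over those 86 genes as a whole, 37 were higher and 49 lower (median -0.09). At an unadjusted p, 1 was higher and 5 lower (1.16% and 5.81%, against 2.73% and 2.49% of all genes).

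Direct reversal and nucleotide supply were each represented by 1 gene. Mgmt, which takes alkyl groups off guanine, lay at 0.80, 1.63 and 1.66 in vehicle samples 1 to 3 and 2.34, 1.53 and 2.02 in DMBA samples 1 to 3. DMBA 2 was below 2 of the vehicle arrays, and the difference was 0.60 (SE 0.35, adjusted p = 0.993; 0.32 within the slide). Rrm2b, the ribonucleotide reductase subunit that serves repair outside S phase and is known as a p53 target, lay at -2.33, -1.75 and -1.88 in vehicle samples 1 to 3 and -2.78, -2.58 and -2.81 in DMBA samples 1 to 3. The DMBA arrays were close together and all below the vehicle arrays, with a difference of -0.74 (SE 0.25, limma adjusted p = 0.886) and -0.91 within the slide. A second Rrm2b probe of nearly the same brightness gave -0.37 with overlapping groups, at -1.19, -3.33 and -2.06 in vehicle and -3.28, -1.95 and -2.45 in DMBA. The usual subunits Rrm1 and Rrm2 were at 0.04 and 0.27.

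Of the genes above, 7 are linked to p53, in several cases from work on human cells, and were set beside a list of 5 p53 targets on the same arrays. All 5 were higher, with a median of 1.16, and in 4 of them the groups did not overlap (80%, against 4.87% of all genes on the higher side). This list, too, was chosen with earlier results of these data known, and the gap between the shares was not tested. Cdkn1a, the gene of the cell cycle brake p21, lay at -0.09, 0.74 and 0.88 in vehicle samples 1 to 3 and 2.42, 2.46 and 2.30 in DMBA samples 1 to 3, and Ccng1, the cyclin G1 gene, at -0.48, -1.32 and -1.23 in vehicle samples 1 to 3 and 0.37, 1.21 and 0.78 in DMBA samples 1 to 3. Both were higher on every DMBA array, by 1.88 (SE 0.31) and 1.79 (SE 0.35), and neither passed over all genes (adjusted p 0.445 and 0.535). Btg2 and Sesn2, which restrain growth, were at 1.16 and 1.04, while Mdm2, whose product degrades p53, was at 0.16 (SE 0.39) with overlapping groups. Of the 7 repair genes, Polk, Mgmt, Polh and Xpc were higher, with differences of 1.16, 0.60, 0.61 and 0.52, and Ddb2, Fancc and Rrm2b lower, with -0.08, -0.16 and -0.74. Polk was the one higher gene with groups apart, and Rrm2b the one lower.

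Where a gene had 2 kept probes, the brighter probe was used, and the dimmer one gives a second reading from the same arrays. This was so for 12 of the repair genes. The sign was the same on both probes in 9 of them and opposite in Ercc8, Pms2 and Rad18. Among the genes past an unadjusted p, Polk, Palb2 and Rrm2b had a second probe, and in each the second difference had the same sign and was smaller in size. In a limma fit over all kept probes their second probes had unadjusted p of 0.50, 0.071 and 0.58. The genes were picked by a small p on the brighter probe, so a smaller second difference says little. For Xpa the dimmer probe passed (-0.89, unadjusted p = 0.042 in that fit), while the brighter did not.

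**Figure D5:**
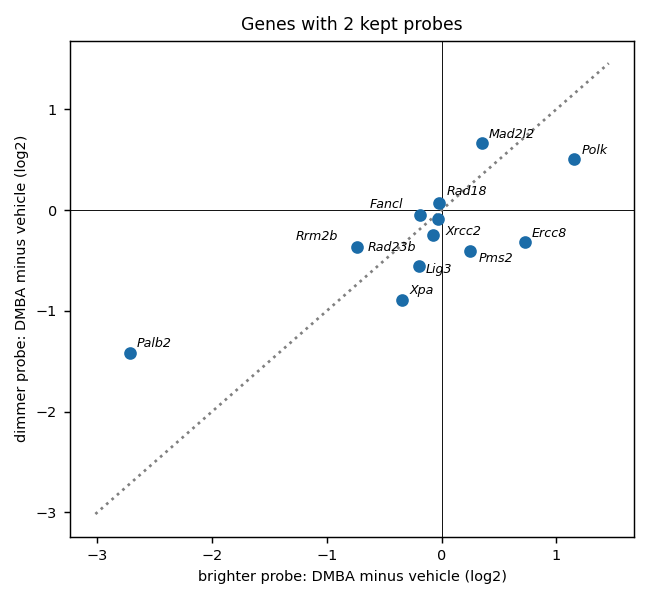
Difference between DMBA and vehicle on the log2 scale for the 12 repair genes with 2 kept probes, the brighter probe on the horizontal axis and the dimmer on the vertical, with a dotted line of equality. Palb2 is lowest on both (-2.72 and -1.42), Polk is higher on both (1.16 and 0.50), and Ercc8 and Pms2 lie in the quadrant where the signs differ.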

How the data were processed

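RNA of 6 sorted cell samples was read on 1-colour Agilent arrays. The deposited scanner files hold spot intensity after background correction by Agilent Feature Extraction 10.7.1.1, per the file headers and the notes of the submitters on processing; the annotation in the headers names build mm9. The deposited matrix, intensity divided by the 75th percentile of each array, was an alternative only. Here the log2 processed intensity minus the log2 75th percentile of the array was used. Control spots (3671) were left out, flagged spots were set as missing, and repeat spots were averaged. The filter kept the 44955 of 55681 probes that cleared background on 3 or more arrays; accessions were named through the RefSeq table of GRCm38.p6, and the probe with the highest mean stood for each of 17848 genes. R 4.3.3, limma 3.58.1 (lmFit and eBayes, two-sided) and version 1.17.8 of data.table were used, with Benjamini-Hochberg adjustment, and the fit was tested on simulated data. Arrays give no depth; their number, 3 a group, limits precision.

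The repair genes, the other lists and the tests were chosen with earlier results of these data known. All repair genes could be named. Values on every array were given for those with an unadjusted p under 0.05 or groups apart, for the genes linked to p53 and for translesion genes; other repair and checkpoint genes were named at an unadjusted p under 0.05. Rrm1, Rrm2, Btg2, Sesn2 and Mdm2, and the values of Brca2, Mlh3 and Chek2 on every array, fall outside that rule and were chosen after their values were seen. Alternatives were normexp (offset 50) on the median spot and local background signals, because the files hold no mean spot signal, the deposited matrix, quantile and median scaling, no filter and a filter on all 6 arrays, the mean over probes, slide and replicate blocks, a covariate, and leaving out each array. Samples with the same number did not deviate together across genes (Pearson's r 0.018, -0.020 and 0.058 for numbers 1, 2 and 3), so the numbers were not taken as pairs.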

Additional observations from a re-analysis of the deposited data

How the results depend on the processing

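No gene passed the adjusted threshold under any alternative other than leaving out an array, where 0 to 1 passed (1 without vehicle 2). The number of repair genes higher at an unadjusted p, 1 over all arrays, was 0 with the mean over kept probes, 2 with the replicate block, 2 with the percentage of probes well above background as a covariate (Fancg and Ercc8, respectively, beside Polk), and 0 to 1 as single arrays were left out, where Polk itself passed in 2 of 6 fits. The number lower, 6 over all arrays, was 4 with the replicate block, 4 to 5 under the other alternatives, and 2 to 4 as single arrays were left out. The groups did not overlap in 9 genes over all arrays and in 11 to 17 as single arrays were left out, where 2 values face 3. The members' median of -0.08 was -0.15 with median scaling, which moved the median of all genes to -0.07, and lay from -0.203 to -0.0854 as single arrays were left out. For break repair, examined under these alternatives after the values were seen, the median of -0.72 lay from -0.91 to -0.26 and the number lower from 9 to 11 as single arrays were left out. None of the 11 genes with an unadjusted p under 0.05 or groups apart changed sign in any alternative. For the 9 with groups apart, leaving out an array or adding the slide or replicate block could not turn the sign. Those settings therefore say nothing about the sign of these 9. Of the other repair genes, up to 11 changed sign, the most with the covariate. Genes such as Ercc6 and Palb2 are limited by signal near background on DMBA arrays.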
